A study of Homo sapiens with 2 samples.

Results

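The last 2 kb of the human rDNA intergenic spacer, the stretch that runs up to the start of the next pre-rRNA gene, was examined for RNA purified with Ku80. The members were all 10-base bins of the spacer from position 42841 to position 44840 of the rDNA repeat, which are 200 of the 4484 bins of the repeat and 200 of the 3150 bins of the spacer. They were chosen by position and not by their values, although earlier results of these data were known when the choice was made. The bins carry no genome coordinates, and positions are those of the single repeat to which the authors aligned the reads, counted from 1 at the start of the 5′ETS. The exact length of that repeat within the last bin is not given in the sources used here.

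PAR-CLIP libraries had been made from HEK293T cells, an established human embryonic kidney line. In PAR-CLIP, cells take up a photoreactive nucleoside, UV light links proteins covalently to bound RNA, and the RNA is purified with the protein and sequenced. Cells labelled as stably expressing SFB-Ku80, which is Ku80 with SBP and tandem FLAG tags, were compared with cells expressing the SFB empty vector. Both received 0.1 mM 6SG overnight and 0.4 J/cm2 of 365 nm UV, and RNA was recovered over streptavidin resin and then Flag resin. Neither condition is labelled with a deleted gene, and the sources used here do not say whether the cells were clones or pools. The study's methods, unlike the labels, name a Ku80 construct made to be transfected transiently, and which expression applied to these libraries could not be settled. Each condition was sequenced as 1 library. Differences between them therefore have no replicate check, no test between conditions was possible and no p-value is given. The cell line was not checked against marker genes, because the count tables hold feature IDs without names.

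Each repeat of the human rDNA holds a pre-rRNA gene, transcribed by RNA polymerase I, and a long intergenic spacer that is not part of the pre-rRNA. The promoter lies at the very end of the spacer, where an upstream control element and a core element are bound by UBF and SL1. A terminator site for the factor TTF1 lies just ahead of the promoter. In rodents, further sequences upstream of the promoter can also start RNA synthesis, and RNA that overlaps the promoter has been studied for its part in silencing rDNA copies. Ku70 and Ku80 form the heterodimer that binds DNA ends and recruits DNA-PKcs.

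MicroRNA genes of the family MIR6724 are annotated ahead of the pre-rRNA genes, at about the distance from the 45S start at which the signal in the last 2 kb began. In RefSeq on GRCh38.p14, MIR6724-1, MIR6724-3 and MIR6724-4 lie ahead of RNA45SN2, RNA45SN3 and RNA45SN1 on chromosome 21, each 92 bases long. Their 5′ ends are 673, 673 and 692 bases ahead of the start of the 45S gene and their 3′ ends 582, 582 and 601 bases ahead. The sequences of MIR6724-4 are shown because, of these genes, it alone had sequences in the reference used here. This gene falls on the rise of the signal only if the repeat of the bins has the same spacing, which could not be checked. The hairpin lies at chr21:8432530-8432621 on the plus strand, and its mature arm, bases 11 to 33 of the hairpin, at chr21:8432540-8432562. In the hairpin the capitals mark bases 46 to 51, the letters GUCGAC, which read the same on both strands and are part of the Sal box known as the TTF1 site. In the mature RNA they mark the seed.
MIR6724-4 hairpin: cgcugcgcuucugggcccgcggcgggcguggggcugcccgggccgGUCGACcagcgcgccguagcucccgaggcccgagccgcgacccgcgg
hsa-miR-6724-5p: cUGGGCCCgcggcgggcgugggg
Of the 1562 hairpins in the RefSeq table, which run from 41 to 164 bases, 4 (0.256%) hold these 6 letters. G and C make up 83.7% of this hairpin, against a median of 52.1% over all hairpins. A match of letters is a description of the sequence and does not show that a factor bound there.

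Over the whole 2 kb the bin signal of SFB-Ku80 exceeded that of SFB empty vector, and nearly all of it lay in one block near the promoter. Since 1 read is counted in each of the bins along its length, sums over bins are not read numbers. The summed signal was 14162 in SFB-Ku80 against 1863 in SFB empty vector. Per 1000000 read pairs of the library, of which there were 22173753 in SFB-Ku80 against 29863974 in SFB empty vector, this was 639 and 62.4, a ratio of 10.2. The fewest reads that could make these profiles, taken as the first bin plus every rise from a bin to the next, were 613 and 99. Per read pair these numbers had a ratio of 8.34, with a 95% exact binomial interval of 6.73 to 10.4 that covers counting error only. The libraries have no stated molecular identifiers, so copies made by PCR count as separate reads in all these values.

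The signal was not spread evenly over the 2 kb. In SFB-Ku80, 99.8% of it lay in 67 neighbouring bins from 44151 to 44820, that is from 690 to 21 bases before the end of the repeat, and these bins made up the longest run past 2-fold in either direction. The run had a signal of 14129 in SFB-Ku80 against 1546 in SFB empty vector, a ratio of 12.3 per read pair. Its bins were picked for being past 2-fold higher in SFB-Ku80, so their shared direction and high ratio followed from the choice. Ahead of the run, from 42841 to 44150, the signal was 33 in SFB-Ku80 against 315 in SFB empty vector, a ratio of 0.141. The stretch thus held 2 parts in which the libraries differed in opposite directions.

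**Figure D1:**
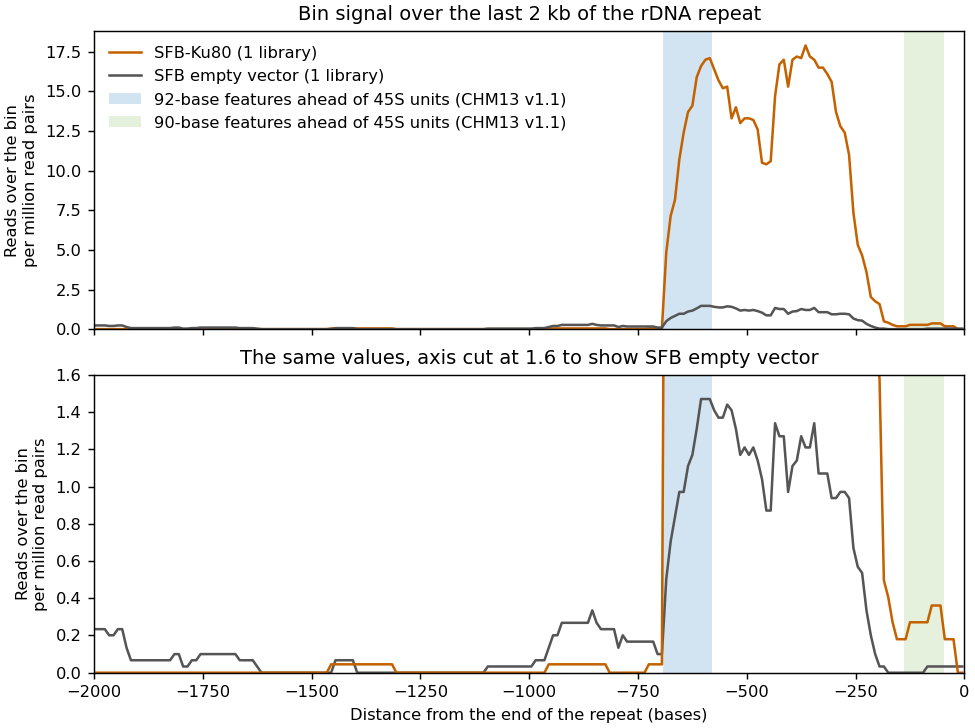
Reads over each 10-base bin per 1000000 read pairs against distance from the end of the repeat in bases, for the SFB-Ku80 and the SFB empty vector library, with the lower panel cut at 1.6. Shaded bands give the distances of the 92-base and 90-base features ahead of 45S units in CHM13 v1.1. The SFB-Ku80 signal starts 690 bases before the end, has peaks of 380 and 398 reads and is near 0 over the last 190 bases.

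The upstream edge of the block was sharp and lay in the same bin in both libraries. Between the bins at 44141 and 44151 the count went from 1 to 107 reads in SFB-Ku80, the largest rise from bin to bin in the 2 kb. In SFB empty vector it went from 3 to 15 at the same place, the second largest rise in that library. A further rise lay at 44401, 440 bases before the end of the repeat, from 236 to 326 reads in SFB-Ku80 against from 26 to 40 in SFB empty vector. The 2 bins with the largest rises were therefore the same in both libraries. The largest fall in SFB-Ku80 was from 245 to 163 reads at 44581, 260 bases before the end, and that in SFB empty vector was from 38 to 29 at 44431.

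The block had 2 humps. The first, from 44151 to 44400, reached 380 reads in SFB-Ku80 at 44251, where SFB empty vector had 44. The second, from 44401 to 44650, reached 398 reads at 44471, where SFB empty vector had 36. Between them the count fell to 230 in SFB-Ku80 against to 26 in SFB empty vector. The ratio per read pair was 11.2 over the first hump and 13.7 over the second. Counted as fewest reads, the ratios were 11.4 (95% exact interval 8.45 to 15.7) and 10.9 (8.18 to 14.7), and the intervals overlapped. The fewest reads are a lower bound, and reads across the border count in both humps. These intervals therefore cannot decide whether the humps differ. Over the 67 bins the 2 profiles ran alongside each other, with Pearson's r of 0.97 and Spearman's rho of 0.89 across bins. Neighbouring bins share reads and both libraries share the alignment, so these are descriptions and carry no p.

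Among the 200 bins, 50 had at least 20 reads over both libraries, and these 50 bins were contiguous, from 44151 to 44650. In SFB-Ku80 alone 50 bins had 20 reads and in SFB empty vector alone 43, so 7 bins passed only through their reads in SFB-Ku80. The filter fixed the direction of these 7 bins, although not a difference of 2-fold. The 43 bins with at least 20 reads in SFB empty vector, which run from 44161 to 44590, were therefore counted as well, a filter added after the values had been seen. All 43 were past 2-fold higher in SFB-Ku80, on the log2 scale with a pseudocount of 1, against 51.2% of the bins passing that filter over the repeat and 0% (0 of 577) in the rest of the spacer. None was past 2-fold lower, against 29.1% and 98.3%. With the filter over both libraries, all 50 were past 2-fold higher, against 51.2% of such bins over the whole repeat and 0.171% in the spacer outside the last 2 kb. None was past 2-fold lower, against 29.2% over the repeat and 98.0% in the rest of the spacer. Without the filter, 67 of the 200 bins were past 2-fold higher and 62 past 2-fold lower. The background without the filter was 23.6% higher and 33.6% lower over the repeat, and 1.08% higher and 49.0% lower over the rest of the spacer. Without the filter the share lower thus did not stand above that of the rest of the spacer.

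Over the 50 bins, the reads per bin ran from 35 to 398 with a median of 304 in SFB-Ku80, and from 1 to 44 with a median of 33.0 in SFB empty vector. In the 48 of them with more than 3 reads in SFB empty vector the ratio per read pair ran from 8.67 to 16.6, with a median of 11.7, and it was at least 10 in 43 bins. In the 43 bins with at least 20 reads in SFB empty vector it ran from 9.49 to 16.6, with a median of 11.9. The lower bound of the 95% exact interval was at least 6.40 in each of these 43 bins. The highest ratio among these 48 bins was at 44531, with 345 and 28 reads (16.6, interval 11.3 to 25.3). It was followed by 44431 with 340 and 29 reads, 44501 with 366 and 32, 44511 with 365 and 32, and 44441 with 376 and 33. The lowest was at 44601, with 103 and 16 reads (8.67, interval 5.09 to 15.7), on the falling side of the second hump. The interval at 44531 overlapped that at 44601.

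**Figure D2:**
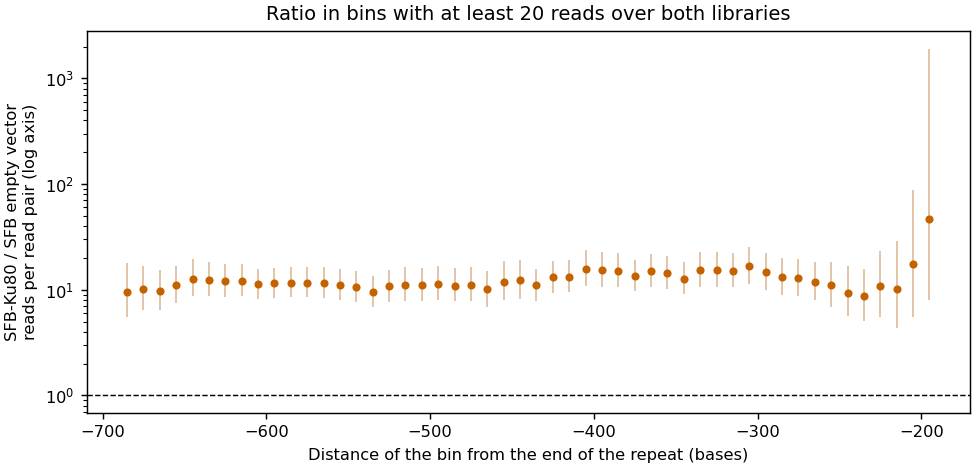
Ratio of SFB-Ku80 to SFB empty vector in reads per read pair (log axis) against distance of the bin from the end of the repeat in bases, for the 50 bins with at least 20 reads over both libraries. Points are ratios, bars are 95% exact binomial intervals for counting error, and the dashed line marks equal signal. No interval reaches it, and 7 of the bins passed only through their reads in SFB-Ku80. The points at 44631 and 44641 rest on 3 and 1 reads in SFB empty vector, and the text gives no ratio for them.

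The bins with the most reads lay at different places in the libraries, although the intervals of their ratios overlapped. In SFB empty vector the 5 highest bins lay in the first hump, with 44 reads at 44231, 44241 and 44251, 43 at 44291 and 42 at 44261. The SFB-Ku80 library had 367, 377, 380, 339 and 364 reads in those bins. Of the 5 highest bins of SFB-Ku80, 4 lay in the second hump, with 398 reads at 44471, 382 at 44451, 381 at 44481 and 380 at 44461, and the other one was the bin at 44251. In the 4 bins of the second hump SFB empty vector had 36, 34, 36 and 38 reads. These named bins of the first and of the second hump were thus within 10 reads of each other in SFB empty vector.

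The last 190 bases before the end of the repeat, the part in which the promoter elements lie, had little signal in either library. From 44651 to 44820 the SFB-Ku80 library had 4 to 11 reads per bin and the SFB empty vector library 0 or 1. The bin at 44641, at the foot of the second hump, had 35 and 1 reads, and the interval of its ratio was 7.92 to 1914. The signal over the last 200 bases was 139 in SFB-Ku80 against 11 in SFB empty vector, made by at least 39 and 2 reads. The ratio of signal per read pair was 17.0 and that of the fewest reads 26.3, with an interval of 6.80 to 225. These 200 bases include the bin at 44641. Without it, from 44651 to 44840, the signal was 104 and 10, made by at least 15 and 2 reads. The ratio there was 14.0 in signal and 10.1 in fewest reads (2.35 to 91.0), so its size is poorly fixed at this depth. In the last bin of the repeat, at 44831, SFB empty vector had 1 read and SFB-Ku80 had 0. A read across the join of one repeat and the next may not align to a single linear repeat, and whether the authors allowed for this is not given in the sources used here. The part of this in the low values was not tested.

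Upstream of the block the libraries differed the other way, at low counts. In the 31 bins from 43841 to 44150, SFB empty vector had 1 to 10 reads per bin and SFB-Ku80 0 or 1. The signals were 176 and 18, a ratio of 0.138. They were made by at least 12 and 2 reads, with a ratio of 0.224 and an interval of 0.0244 to 1.01, which reaches 1. Over all bins from 42841 to 44150 the fewest reads were 25 and 3, a ratio of 0.162 (0.0312 to 0.530). From 42841 to 43040, at the upstream border, SFB empty vector had 2 to 7 reads in each of the 20 bins and SFB-Ku80 had 0 in all of them. The bin at the border itself, 42841, had 7 and 0 reads, and its interval reached from 0 to 0.934. The runs past 2-fold lower in SFB-Ku80 lay at 42841 to 43040, 43061 to 43210, 43851 to 43880 and 43891 to 44130. These runs rest on few reads: at least 9, 3, 2 and 12 in SFB empty vector and 0, 0, 0 and 2 in SFB-Ku80. The intervals of the ratios of these reads had upper bounds of 0.682, 3.26, 7.17 and 1.01, so only the first stayed under 1. Between 43211 and 43850 both libraries had at most 2 reads per bin, which is at or under the limit of 3 reads that a count of 0 allows, so no ratio is given there.

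In windows of 200 bases counted back from the end of the repeat, the direction changed between the window from 601 to 800 and that from 801 to 1000 bases before the end. The window from 44241 to 44440 had the highest signal, 285 per 1000000 read pairs in SFB-Ku80 against 24.8 in SFB empty vector. The next window towards the promoter had 243 and 17.6, and the one from 44041 to 44240, which holds the upstream edge, had 104 and 10.7. Their ratios were 11.5, 13.8 and 9.64. In the window from 43841 to 44040 the signal was 0.631 and 4.19 per 1000000 read pairs, a ratio of 0.151. This window rests on few reads, at least 1 in SFB-Ku80 against 10 in SFB empty vector (interval of their ratio 0.00310 to 0.947). Of the 10 windows, 7 had a signal of at least 20 over both libraries and 4 of these were past 2-fold higher in SFB-Ku80, against 0.909% of the 110 such whole windows in the rest of the spacer.

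The rest of the spacer, taken as a whole, was lower in SFB-Ku80. Its 2950 bins had a signal of 9555 in SFB-Ku80 against 62786 in SFB empty vector, a ratio of 0.205 per read pair. In whole-kilobase steps counted back from the end, the last 1 kb had a ratio of 11.1 and the 1 kb before it 0.145. The other 30 steps had ratios from 0.0703 to 1.48 with a median of 0.209, and the 1 step above 1 held a signal of only 22 and 20. An exception lay at the other border of the spacer, next to the 3′ETS. The last window there, a shorter one of 10 bins from 13341 to 13440, had a signal of 88 in SFB-Ku80 against 3 in SFB empty vector. The bin at 13341 had 52 and 3 reads, and reads reaching over from the 3′ETS would be counted in it. As fewest reads, the ratio of this window was 23.3 with an interval of 7.56 to 117. The most upstream step, of 500 bases from 13341 to 13840, had a signal ratio of 0.709, while its fewest reads, 57 in SFB-Ku80 against 30 in SFB empty vector, had a ratio of 2.56 (1.62 to 4.12). The 1 whole window of 200 bases past 2-fold higher lay at 20241 to 20440, with a ratio of 2.02 from at least 2 reads in SFB-Ku80 against 3 in SFB empty vector. The last 2 kb, 6.35% of the spacer's bins, held 59.7% of the spacer signal in SFB-Ku80 against 2.88% in SFB empty vector. These shares are within a library and do not depend on the total used for scaling. The highest bin of the whole spacer in SFB-Ku80 was the one at 44471, and outside the last 2 kb no bin exceeded 197 reads. In SFB empty vector the highest spacer bin held 850 reads at 34881, and 436 bins of the spacer had more reads than the highest bin of the last 2 kb.

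**Figure D3:**
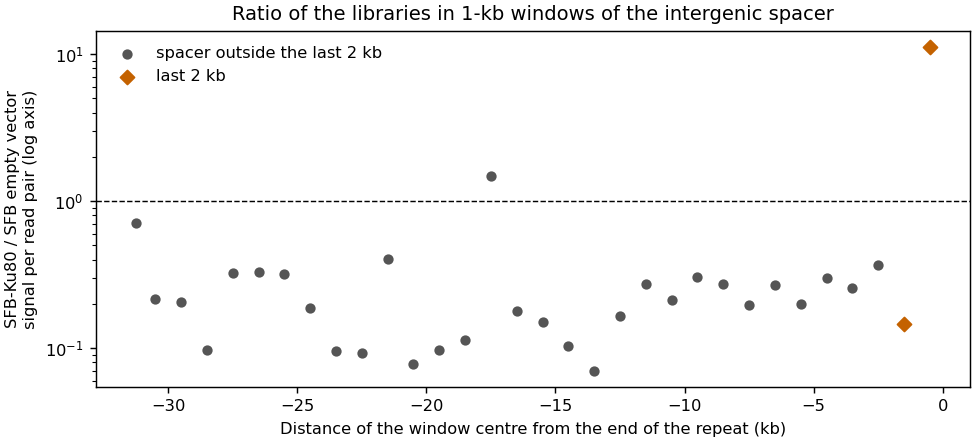
Ratio of SFB-Ku80 to SFB empty vector in signal per read pair (log axis) against distance of the window centre from the end of the repeat in kb, for windows of 1 kb over the whole spacer (the most upstream one is shorter). The last 1 kb stands at 11.1, while the 1 kb before it, at 0.145, lies among the other windows of the spacer.

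On the other side of the end of the repeat lies the 5′ETS, the first part of the pre-rRNA, in which SFB-Ku80 was the higher library throughout. The ratio per read pair was 7.35 over the whole 5′ETS, 7.17 over its first 2 kb and 5.75 over its first 200 bases, against 12.3 in the run ahead of the promoter. As fewest reads, the ratio was 10.7 in the run (95% exact interval 8.42 to 13.7), 7.14 in the whole 5′ETS (7.07 to 7.21) and 5.91 in its first 200 bases (5.22 to 6.71). The run was picked by its ratio, so its values are a description and no difference from the 5′ETS is read from them. The last 2 kb, chosen by position, had a ratio of 8.34 (6.73 to 10.4). Its interval overlapped those of the whole 5′ETS and of its first 2 kb (6.76 to 6.92). It lay above those of the first 200 bases and of the first 1 kb of the 5′ETS (5.49 to 5.67). The fewest reads understate the reads most where these overlap densely, so these intervals cannot decide whether the ratios differ. The signal itself was far lower in the spacer block: the mean count per bin was 280 over the 50 bins in SFB-Ku80, 794 over the first 200 bases of the 5′ETS and 19158 over the whole 5′ETS. In SFB empty vector these means were 30.8, 186 and 3512. The block was also set apart from the 5′ETS by the low stretch of 190 bases, and the 5′ETS began at 17 reads in SFB-Ku80 against 0 in SFB empty vector in its first bin.

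**Figure D4:**
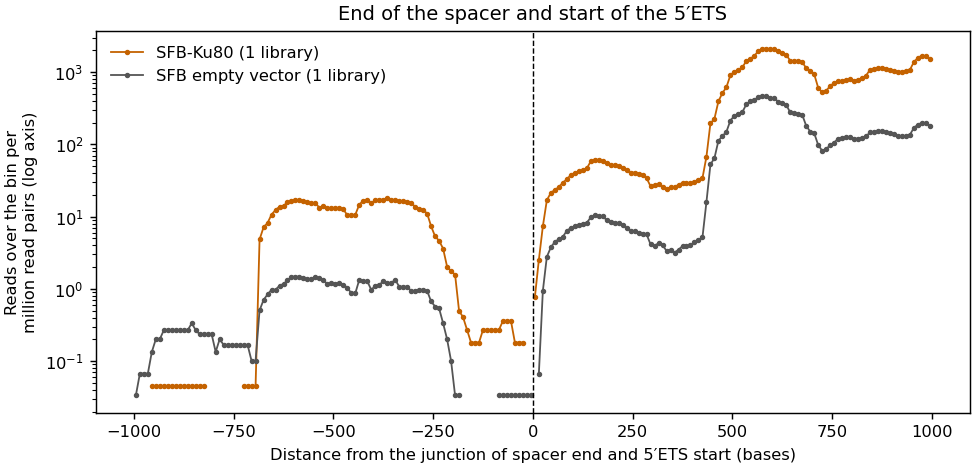
Reads over each 10-base bin per 1000000 read pairs (log axis, bins at 0 left out) against distance in bases from the join of the spacer end and the 5′ETS start, marked by the dashed line, in both libraries. The block of the spacer and the start of the 5′ETS are separated by about 190 bases of low signal.

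The count tables give a further readout of features ahead of 45S units, from an alignment to the whole CHM13 v1.1 genome. The annotation holds 219 whole 45S units, and 9 of these, on chromosomes 13, 14, 15, 21 and 22, have annotated features within 2 kb ahead of their start. There are 18 such features, a pair ahead of each unit and on the strand of the unit. The upstream feature of each pair is 92 bases long, from 672 to 693 bases ahead of the 45S start at its 5′ end to between 581 and 602 at its 3′ end. The downstream one is 90 bases long, from 136 to 138 down to between 47 and 49 bases ahead. The length and distances of the 92-base features are within 1 base of those of the MIR6724 genes of RefSeq, but the tables do not pair these IDs with names and they are not named here. If the repeat used for the bins has the same spacing, the 92-base stretch falls on the upstream edge and rise of the block and the 90-base stretch on the low part next to the promoter. That spacing could not be checked, because the sequence of the repeat was not used here.

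Counts on these features were few. The 9 features of 92 bases had 22 counts in SFB-Ku80 against 1 in SFB empty vector, a ratio per read pair of 29.6 with an exact interval of 4.79 to 1223. The highest was LOFF_G0000482 on chromosome 13 (9200997 to 9201088), with 6 counts and 0, and 7 of the 9 had any count in SFB-Ku80. The 9 features of 90 bases had 2 counts in SFB-Ku80 against 3 in SFB empty vector, a ratio of 0.898 with an interval of 0.0750 to 7.84. A multimapping read was counted at every reported place, so counts on near-identical copies are not independent and the intervals are too narrow. In uniquely mapped pairs all 18 features had 0 in both libraries.

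Like features also lie beyond the last whole 45S unit of each array, a group added after their values had been seen. There, 5 features of 92 bases had 78 counts in SFB-Ku80 against 87 in SFB empty vector, of which LOFF_G0000509 on chromosome 13 (9341096 to 9341187) alone had 71 and 86. The 5 features of 90 bases had 48 and 54 counts, of which LOFF_G0000852 on chromosome 15 (4701061 to 4701150) had 47 and 49. With them added, the ratio for 92 bases was 1.53 and that for 90 bases 1.18. Without LOFF_G0000509, the other 4 features of 92 bases beyond the last units had 7 counts in SFB-Ku80 against 1 in SFB empty vector. Of these 7 counts, 5 were on LOFF_G0001664, while LOFF_G0001789 had 0 in SFB-Ku80 against 1 in SFB empty vector. Without LOFF_G0000852, the other 4 features of 90 bases had 1 count in SFB-Ku80 against 5 in SFB empty vector. Both features were left out after their counts had been seen, so no direction is read from the rest. Among the 92-base features, a single feature at the end of an array decided the value with all 14.

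The size of the ratio over the 2 kb rested on the total by which the libraries were scaled. Of the read pairs, 47.1% were unmapped in SFB-Ku80 against 21.5% in SFB empty vector, and the summed signal over the whole repeat was 139810137 and 82331237. Scaled by the signal over the repeat, the ratio of the last 2 kb was 4.48 in place of 10.2. The part of unmapped reads and of the larger rRNA signal in the result was not tested.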

How the data were processed

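HEK293T PAR-CLIP libraries of SFB-Ku80 and SFB empty vector were analysed, 1 of each. The authors aligned reads by BLAST to an rDNA repeat and deposited a signal, the number of reads over each 10-base bin, without scaling. The BLAST version and limits, the strand and the rDNA sequence are not given in the sources used here. The deposited counts per feature came from STAR 2.7.6a (uniquely mapped pairs) and featureCounts 2.0.2 (multimapping reads counted) on CHM13, per the submitters' processing notes and the file header.

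Signals were divided by the sum of the STAR table, header rows included. Bins missing from a file, 2 in SFB-Ku80, counted 0. Bins were called on log2 values with a pseudocount of 1, scaled by library size for SFB empty vector. Intervals are 95% exact conditional binomial intervals (SciPy 1.17.1). Named bins were the 5 with the most reads in each library, the top 5 and bottom 5 by ratio among bins with at least 20 reads, the border bins and runs of at least 3 bins past 2-fold. The 45S units were features within 1% of RefSeq 45S lengths that enclose features of at least 2 of the lengths of 18S, 5.8S and 28S. On simulated counts for SFB-Ku80 against SFB empty vector over 4484 bins, 200 of the 1962 bins expected to reach 20 reads were changed. Of these, 100% had the right sign. The changes set were large and the counts were drawn independently for each bin, while real neighbouring bins share reads. This checks the calculation only and not bins with few reads. The members and lists were chosen with earlier results of these data known.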

Additional observations from a re-analysis of the deposited data

How the results depend on the processing

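No paired analysis was possible because neither condition was sequenced from more than 1 library, and no replicate could be left out. The ratio over the last 2 kb, 10.2 as reported, was 15.2 when scaled by mapped read pairs, 21.1 by uniquely mapped pairs, 4.48 by the BLAST signal over the repeat and 50.0 by the signal over the rest of the spacer. It was 13.1 over the last 500 bases. The median over bins turned the direction, to 0.337, since most bins lay outside the block, as did leaving out the run of higher bins (0.140), chosen after seeing the data. The ratio over the last 2 kb against that over the rest of the spacer, 50.0, was 64.1 with the last 500 bases. The ratio of the 92-base features moved from 29.6 to 1.53 with the features beyond the last units added. The other settings moved no result past these limits: bins past 2-fold numbered 43 to 67, the lowest with at least 20 reads asked of SFB empty vector alone, the share of the spacer signal in SFB-Ku80 was 59.4 to 59.7%, the windows past 2-fold were 7 of 20 with windows of 100 bases, and with a pseudocount of 0.5 none of 21 named bins changed direction. The alternative with uniquely mapped pairs gave no value for the features, which had 0 in both libraries. At this depth 1 read is worth 0.0451 per 1000000 read pairs in SFB-Ku80 against 0.0335 in SFB empty vector. Bins with 3 or fewer reads in SFB empty vector therefore carry no ratio in the text.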
